A study of Mus musculus with 3 samples.

Results

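Interferon-stimulated genes are the genes that a cell switches on when it senses interferon, the cytokine that warns tissues of viruses. A set of 32 such genes was followed by symbol in single-cell RNA counts of early lymphoid progenitors from mouse bone marrow, and all 32 were found among the 27998 genes of each table. The members were chosen by name and known role, with earlier results of these data known. The questions were at which level each member stood in each sorted population, and whether the members at high levels came from a few myeloid cells, marked by 5 or more transcripts of the lysozyme gene Lyz2, or from the progenitors at large.

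Each of the 3 populations was measured in 1 library of 10x Chromium v2 chemistry, so differences between them have no replicates behind them and no test was possible. ILCpro_KO holds progenitors of innate lymphoid cells (ILCs) from Tcf7EGFPnull/- mice, in which the Tcf7 gene of the transcription factor TCF-1 is altered, sorted as Lin- Kit+ 2B4+ a4b7+ and Tcf7+. ILCpro_WT was sorted by the same gate from Tcf7EGFP/+ mice, so WT here means heterozygous for the reporter. ALP holds all-lymphoid progenitors from Tcf7EGFP/+ mice, taken by the gate Lin- Kit+ 2B4+ a4b7-, and within it by Flt3high and IL-7Ra+. The mice were C57BL/6, and their age and number are not given in the sources used here. All mice carried a changed Tcf7 allele, and it is not stated which exons are missing from the null alleles.

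After filtering, 716 ILCpro_KO, 1829 ILCpro_WT and 810 ALP cells were kept, with 4384061, 6094683 and 4115605 unique molecular identifiers (UMIs, each standing for 1 captured transcript) and medians of 5309, 2897 and 4544.5 UMIs a cell. Levels are UMIs summed over a library, given per 1000000 UMIs of that library (CPM), and the parentheses hold exact 95% Poisson intervals; folds are plain ratios of CPM with exact conditional binomial intervals. All these intervals cover counting error only. UMIs are tags of transcript ends and are not scaled to gene length, so levels are compared between libraries or cells and not between genes. The ILCpro_KO and ILCpro_WT libraries shared 1 barcode sequence, ILCpro_WT and ALP shared 4, and ILCpro_KO and ALP shared 0. Tcf7 stood at 57.3 CPM in ILCpro_KO, 362 CPM in ILCpro_WT and 1.46 CPM in ALP, and tags from outside the missing part do not check the genotype. The 10 markers of ILC precursors summed to 1051 CPM in ILCpro_KO, 2607 CPM in ILCpro_WT and 222 CPM in ALP, and the 7 early lymphoid markers to 719, 448 and 2960 CPM in the same libraries.

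In type I interferon signalling, interferon binds the receptor pair IFNAR1 and IFNAR2, whose kinases JAK1 and TYK2 start the signal. The complex ISGF3, which includes STAT2 and IRF9, then binds a short DNA element, the interferon-stimulated response element (ISRE), in front of its target genes. Interferon gamma instead acts through another element, the gamma-activated site (GAS). Stem and progenitor cells are known to hold a part of these genes, the Ifitm genes among them, at a high level without added interferon.

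The ISRE core was looked for around the start sites of the members, because it is the element that ISGF3 binds. RefSeq promoter windows of the build GRCm38.p6, from 250 bases before to 50 after each start site, were at hand for 24 of the 32 members. The letters GAAANNGAA, searched on both strands with overlapping matches each counted, were present in 16 of these 24 members (66.7%) and in 9.76% of all 27025 genes with a window. At least 2 matches in a window were found in 10 of 31 member windows, and in 205 of all 32851 windows (0.624%). The letters of the GAS, TTCNNNGAA, which may share bases with an ISRE core, were present in 9 of the 24 members (37.5%) and in 9.55% of genes. The stretches below are those of 3 strongly inducible members that were near 0 in these cells or low (Isg15, Ifit1, Oas3) and of 3 membrane proteins that were abundant in them (Bst2, Ifitm2, Ifitm3), with the ISRE core letters, on either strand, in capitals.
Isg15, chr4:156200856-156200916, minus strand: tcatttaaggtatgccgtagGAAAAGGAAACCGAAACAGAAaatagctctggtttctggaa
Ifit1, chr19:34640760-34640833, plus strand: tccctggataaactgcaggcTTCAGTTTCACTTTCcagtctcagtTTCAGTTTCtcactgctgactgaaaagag
Oas3, chr5:120777700-120777754, minus strand: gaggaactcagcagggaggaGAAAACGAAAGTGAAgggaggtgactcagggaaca
Bst2, chr8:71537568-71537622, minus strand: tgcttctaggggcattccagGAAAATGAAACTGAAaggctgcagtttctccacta
Ifitm2, chr7:140955979-140956027, minus strand: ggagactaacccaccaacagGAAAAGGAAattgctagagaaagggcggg
Ifitm3, chr7:141010717-141010742, minus strand: GAAAAGGAAacttctgaGAAACCGAA
Isg15 and Ifit1 had 3 overlapping or close matches each, Oas3, Bst2 and Ifitm3 had 2, and Ifitm2 had 1. The matches of Ifitm3 begin 2 and 19 bases past its start site, within the transcript, and those of the other 5 lie before theirs. No match to these letters was in the 1 window of Ifitm1. A match is a description of the letters and not a site of binding, and members at near-0 and at high levels both carried the letters.

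A few genes of membrane proteins made up most of the UMIs of the set. In ILCpro_KO 9 members stood at 50 CPM or more, 14 between 5 and 50 CPM and 9 below 5 CPM. In ILCpro_WT the counts were 3, 19 and 10, and in ALP 9, 16 and 7. The summed level of the 32 members was 2249.7 CPM in ILCpro_KO, 1466 CPM in ILCpro_WT and 2237 CPM in ALP. Ly6e alone held 52.0% of the member UMIs in ILCpro_KO, 54.3% in ILCpro_WT and 27.0% in ALP, and without it the sums were 1079.8, 669.6 and 1632 CPM. In that sum ILCpro_WT was the lowest library and ALP the highest.

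**Figure D1:**
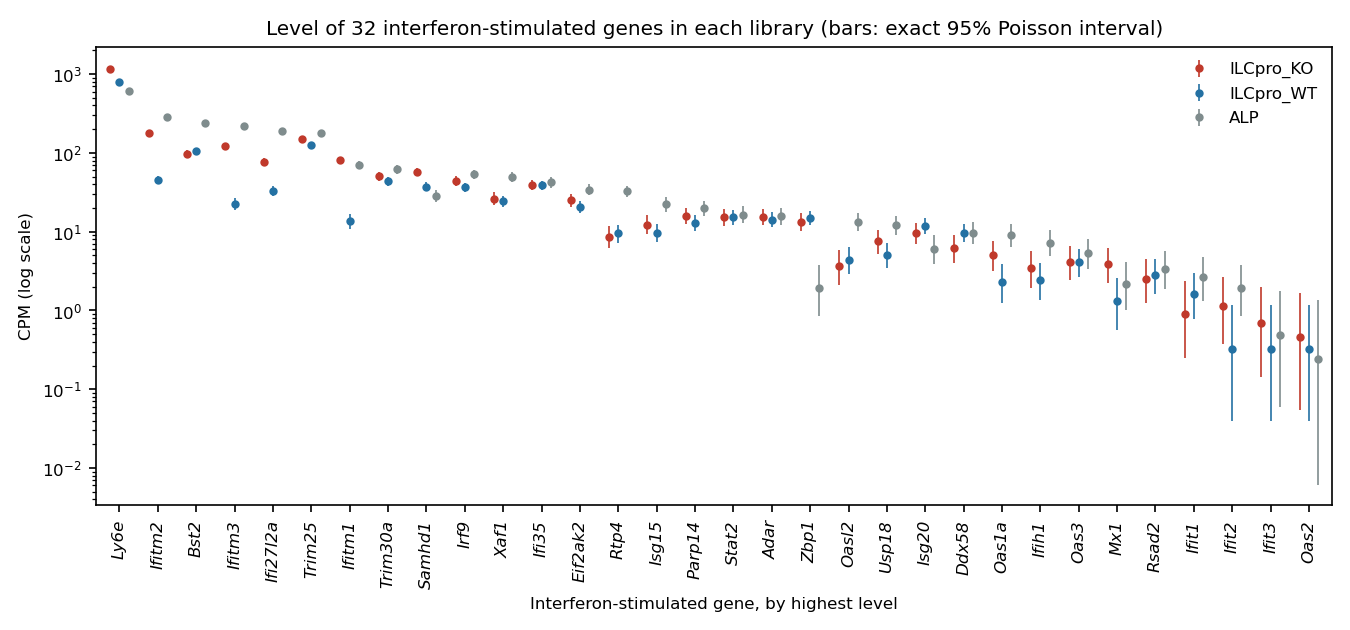
Level of each of the 32 interferon-stimulated genes in ILCpro_KO, ILCpro_WT and ALP, in CPM on a log axis, ordered by the highest level; points are library sums and bars exact 95% Poisson intervals for counting error. The Ifitm genes and Ifi27l2a have ILCpro_WT lowest, Zbp1 has ALP lowest, and the Ifit genes and Oas2 stand below 3 CPM in every library.

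The interferon-induced transmembrane proteins Ifitm1, Ifitm2 and Ifitm3 sit in membranes and block the fusion of enveloped viruses. Their genes are neighbours on mouse chromosome 7 (GRCm38, Ifitm2 at 140954837 to 140955987, Ifitm1 at 140967221 to 140969825 and Ifitm3 at 141009586 to 141010770), and as like copies they may share reads. Ifitm1 stood at 80.3 CPM (72.1 to 89.1) in ILCpro_KO, 13.6 CPM (10.8 to 16.9) in ILCpro_WT and 70.7 (62.8 to 79.3) in ALP. Ifitm2 stood at 179 CPM (166 to 192) in ILCpro_KO, 45.4 CPM (40.2 to 51.1) in ILCpro_WT and 288 (272 to 305) in ALP. Ifitm3 stood at 124 CPM (114 to 135) in ILCpro_KO, 22.3 CPM (18.7 to 26.4) in ILCpro_WT and 217 (203 to 232) in ALP. The ILCpro_WT library was the low one for each of these genes, with intervals apart from both other libraries. The level in ILCpro_KO was 5.90-fold (4.63 to 7.58) that of ILCpro_WT for Ifitm1, 3.93-fold (3.42 to 4.52) for Ifitm2 and 5.55-fold (4.59 to 6.75) for Ifitm3. Against ALP, ILCpro_WT was 5.19-fold lower (4.06 to 6.71) for Ifitm1, 6.33-fold lower (5.55 to 7.25) for Ifitm2 and 9.74-fold lower (8.12 to 11.8) for Ifitm3. Between ILCpro_KO and ALP, Ifitm1 differed by 1.14-fold, with an interval that includes 1 (0.969 to 1.33), while Ifitm2 was 1.61-fold (1.47 to 1.77) and Ifitm3 1.75-fold (1.58 to 1.96) lower in ILCpro_KO.

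Bst2, or tetherin, holds budding virions at the cell surface, and Ly6e is a lipid-anchored surface protein of lymphoid and progenitor cells that restricts coronaviruses. Bst2 (chromosome 8) stood at 98.1 CPM (89.0 to 108) in ILCpro_KO, 107 CPM (98.6 to 115) in ILCpro_WT and 238 (223 to 253) in ALP. Its level was alike within counting error in ILCpro_KO and ILCpro_WT, with a fold of 0.920 (0.812 to 1.04), and 2.43-fold lower (2.16 to 2.72) in ILCpro_KO than in ALP. Bst2 is also a marker of plasmacytoid dendritic cells (DCs). The 8 markers of that type, Bst2 and the interferon regulatory factor Irf8 included, summed to 1089.6 CPM in ILCpro_KO, 544 CPM in ILCpro_WT and 1796 CPM in ALP, with 4 of 8 at least 2-fold lower in ILCpro_KO than in ALP. Siglech, a defining gene of that type, had 2 UMIs in ILCpro_KO, 3 in ILCpro_WT and 98 in ALP. The part of such cells in the Bst2 level was not tested. Ly6e (chromosome 15) was highest in ILCpro_KO, at 1169.9 CPM (1138 to 1202) in ILCpro_KO, 796 CPM (774 to 819) in ILCpro_WT and 605 (582 to 629) in ALP, which puts ILCpro_KO at 1.47-fold (1.41 to 1.53) of ILCpro_WT and 1.93-fold (1.84 to 2.03) of ALP.

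The IFIT proteins bind foreign RNA caps and the OAS proteins make the second messenger that activates RNase L; both families are sharply induced by type I interferon. Ifit1 had 4 UMIs in ILCpro_KO, 10 in ILCpro_WT and 11 in ALP, Ifit2 had 5, 2 and 8, and Ifit3 had 3, 2 and 2, each number a sum over a whole library. Oas2 had 2 UMIs in ILCpro_KO, 2 in ILCpro_WT and 1 in ALP. With the floor of 3 counts at 0.684, 0.492 and 0.729 CPM in these libraries, Ifit3 and Oas2 were at or under the floor in all 3. Oas1a stood at 5.02 CPM in ILCpro_KO, 2.30 CPM in ILCpro_WT and 8.99 CPM in ALP, and Oasl2 at 3.65, 4.43 and 13.4 CPM. As plain ratios, ILCpro_WT was 3.91-fold (2.07 to 7.84) below ALP for Oas1a and 3.02-fold (1.87 to 4.97) for Oasl2, from few UMIs. Oas3 stood between 4.10 and 5.35 CPM in the 3 libraries. Ifit3 has a near copy, Ifit3b, with 1, 1 and 3 UMIs in ILCpro_KO, ILCpro_WT and ALP, and Oas1a has relatives such as Oas1g, with 4, 1 and 5 UMIs, so reads could be split between them.

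Isg15 is a ubiquitin-like protein that is coupled to others during the response, Usp18 removes it and damps the receptor, Trim25 is a ubiquitin ligase that activates the RNA sensor RIG-I, and Trim30a is a mouse TRIM protein that damps inflammatory signalling. Isg15 stood at 12.3 CPM (9.25 to 16.1) in ILCpro_KO, 9.68 CPM (7.37 to 12.5) in ILCpro_WT and 22.4 (18.02 to 27.4) in ALP. Usp18 followed the same order at 7.53, 5.09 and 12.1 CPM. Trim25 (chromosome 11) stood at 148 CPM (137 to 160.4) in ILCpro_KO, 124 CPM (116 to 133) in ILCpro_WT and 177 (164 to 190.0) in ALP. Trim30a (chromosome 7) stood at 50.4 CPM (44.0 to 57.5) in ILCpro_KO, 43.5 CPM (38.4 to 49.0) in ILCpro_WT and 62.0 (54.6 to 70.1) in ALP. All of these were less than 2-fold apart on the log2 scale with 10 CPM added, and each was lowest in ILCpro_WT.

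Ifih1 (MDA5) and Ddx58 (RIG-I) sense viral RNA, Eif2ak2 (PKR) stops translation on double-stranded RNA, Adar edits adenosine in such RNA, and Zbp1 senses Z-form nucleic acid and triggers cell death. Zbp1 (chromosome 2) was the member that stood out here, at 13.5 CPM (10.2 to 17.4) in ILCpro_KO, 15.1 CPM (12.2 to 18.5) in ILCpro_WT and 1.94 (0.839 to 3.83) in ALP, the last from 8 UMIs. ILCpro_WT was at 7.77-fold (3.78 to 18.5) of ALP, and ILCpro_KO at 6.92-fold (3.29 to 16.8). On the log2 scale with 10 CPM added, on which members are counted as 2-fold apart, ILCpro_WT over ALP was at 1.07 and ILCpro_KO over ALP at 0.97, just under the line of 1. Eif2ak2 stood at 25.1, 20.7 and 34.3 CPM in ILCpro_KO, ILCpro_WT and ALP, Adar at 15.5, 14.3 and 15.8 CPM, Ddx58 at 6.16, 9.68 and 9.72 CPM and Ifih1 at 3.42, 2.46 and 7.29 CPM. Among the genes of this group, Ifih1 and Eif2ak2 were below ALP with intervals that exclude 1. Ifih1 was at 0.469-fold (0.235 to 0.900) in ILCpro_KO and 0.338-fold (0.169 to 0.648) in ILCpro_WT, and Eif2ak2 at 0.732-fold (0.565 to 0.946) and 0.603-fold (0.471 to 0.773).

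Samhd1 breaks down deoxynucleotides and so limits retroviruses, Isg20 is an RNA exonuclease, Mx1 a dynamin-like GTPase, Rsad2 (viperin) makes a chain-ending nucleotide, and Rtp4 is a chaperone that binds viral RNA. Samhd1 (chromosome 2) stood at 57.5 CPM (50.6 to 65.0) in ILCpro_KO, 37.1 CPM (32.4 to 42.2) in ILCpro_WT and 28.4 (23.5 to 34.1) in ALP, so that ILCpro_KO was at 1.55-fold (1.29 to 1.86) of ILCpro_WT and 2.02-fold (1.62 to 2.54) of ALP. Rtp4 (chromosome 16) stood at 8.67 CPM (6.13 to 11.9) in ILCpro_KO, 9.52 CPM (7.23 to 12.3) in ILCpro_WT and 32.6 (27.3 to 38.6) in ALP. Both ILC progenitor libraries were low in Rtp4, 3.76-fold (2.60 to 5.54) below ALP in ILCpro_KO and 3.42-fold (2.496 to 4.74) below it in ILCpro_WT. Isg20 stood at 9.58, 11.98 and 6.07 CPM in ILCpro_KO, ILCpro_WT and ALP, Mx1 at 3.88, 1.31 and 2.19 CPM and Rsad2 at 2.51, 2.79 and 3.40 CPM. The strain C57BL/6 is known to carry a defective Mx1 allele.

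Stat2 and Irf9 are the parts of ISGF3 within the set. Irf9 (chromosome 14) stood at 44.0 CPM (38.0 to 50.7) in ILCpro_KO, 36.4 CPM (31.8 to 41.6) in ILCpro_WT and 53.2 (46.4 to 60.7) in ALP, and Stat2 at 15.3, 15.3 and 16.5 CPM. The remaining members are Ifi27l2a, a small mitochondrial protein, Ifi35, which pairs with Nmi, Xaf1, a partner of the apoptosis inhibitor XIAP, and the ADP-ribosyl transferase Parp14. Ifi27l2a (chromosome 12) had a pattern like that of Ifitm2 and Ifitm3, at 77.6 CPM (69.5 to 86.3) in ILCpro_KO, 32.7 CPM (28.3 to 37.5) in ILCpro_WT and 189 (176 to 203) in ALP. ILCpro_KO was at 2.38-fold (1.99 to 2.84) of ILCpro_WT and 2.43-fold (2.14 to 2.77) below ALP, and ILCpro_WT was 5.78-fold (4.94 to 6.79) below ALP. Xaf1 stood at 26.2, 24.4 and 49.6 CPM in ILCpro_KO, ILCpro_WT and ALP, Ifi35 at 39.5, 39.1 and 42.3 CPM and Parp14 at 15.97, 13.0 and 19.9 CPM. As a plain ratio, Xaf1 was 2.03-fold (1.63 to 2.52) lower in ILCpro_WT than in ALP.

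Counted over the set, 23 of 32 members reached 5 CPM in ILCpro_KO or ILCpro_WT. Of these, 4 (Ifitm1, Ifitm2, Ifitm3 and Ifi27l2a) were at least 2-fold higher in ILCpro_KO and 0 at least 2-fold lower, where 1.48% of the 9551 genes that reached that level were at least 2-fold higher and 0.869% at least 2-fold lower. The log2 ratios with 10 CPM added were 2.05 for Ifitm3, 1.93 for Ifitm1, 1.77 for Ifitm2 and 1.04 for Ifi27l2a. The median of the 23 members was 0.18, beside 0.09 for all genes. Between ILCpro_WT and ALP 26 members reached 5 CPM, with 1 (Zbp1) at least 2-fold higher in ILCpro_WT, beside 2.11% of 9616 genes, and 6 (Ifitm1, Ifitm2, Ifitm3, Bst2, Rtp4 and Ifi27l2a) at least 2-fold lower, beside 3.06%. Their median was -0.47, and that of all genes -0.07. Between ILCpro_KO and ALP 0 of 26 members were at least 2-fold higher, beside 2.01% of 9644 genes, and 3 (Bst2, Rtp4 and Ifi27l2a) at least 2-fold lower, beside 1.43%, with a median of -0.27 and one of 0.01 for all genes. These comparisons share libraries, so they are not independent of each other, and with 1 library a group the counts describe these libraries alone. In sums over a sorted population, more cells of a type and more RNA per cell cannot be told apart.

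The rest of the pathway was read from 90 other interferon genes. The 10 listed genes of interferons themselves had 0 UMIs in every library, with the exception of 2 UMIs of Ifng in ILCpro_KO. The receptor chains were present: Ifnar1 stood at 24.2, 20.02 and 29.6 CPM in ILCpro_KO, ILCpro_WT and ALP, Ifnar2 at 77.1, 35.3 and 110.3 CPM, Ifngr1 at 83.3, 43.5 and 80.2 CPM and Ifngr2 at 35.6, 15.3 and 36.7 CPM. Each of these 4 receptor genes was lowest in ILCpro_WT, as the Ifitm genes were, and Ifnar2 was 3.13-fold (2.65 to 3.70) lower in ILCpro_WT than in ALP. For Ifnar1 the intervals of ILCpro_KO (19.8 to 29.2) and ILCpro_WT (16.6 to 23.9) overlap. Il10rb, a chain of the interferon lambda receptor, stood at 24.4, 12.3 and 94.3 CPM. Of the factors, Irf1 stood at 41.5, 31.8 and 44.2 CPM and Irf7, which amplifies the response, at 10.0, 9.19 and 12.9 CPM.

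At least 2-fold apart between ILCpro_KO and ILCpro_WT were 5 of the 59 pathway genes that reached 5 CPM, 4 of them higher and 1 lower in ILCpro_KO (6.78% and 1.69%), beside 1.48% and 0.869% of all genes. The lower one was Socs1, which blocks JAK kinases and so damps interferon signalling. It stood at 7.76 CPM in ILCpro_KO, 73.7 CPM in ILCpro_WT and 7.78 CPM in ALP, 9.50-fold lower (6.70 to 13.9) in ILCpro_KO than in ILCpro_WT. In the clustering described below, 334 of its 449 ILCpro_WT UMIs lay in ILCP-like cluster 1, which held 537 ILCpro_WT and 13 ILCpro_KO cells. Within ILCpro_WT, Socs1 stood at 234 CPM in cluster 1, 48.4 CPM in cluster 3 and 7.68 CPM in cluster 0. The part of this cluster in the difference was not tested. The higher ones were Irf8, a factor of DCs and monocytes, at 833 against 315 CPM, Irf5, a factor of myeloid cells, at 49.0 against 13.3 CPM, Slfn2 at 79.2 against 24.9 CPM and Ifitm6 at 12.8 against 1.15 CPM. Between ILCpro_WT and ALP 1 pathway gene (Socs1) was at least 2-fold higher in ILCpro_WT and 6 lower out of 62 (1.61% and 9.68%), beside 2.11% and 3.06% of all genes. Between ILCpro_KO and ALP 3 were higher in ILCpro_KO and 2 lower out of 63 (4.76% and 3.17%), beside 2.01% and 1.43%. Those lower in ILCpro_WT than in ALP included Ifi203, a DNA-binding protein, at 33.1 against 112 CPM, the galectin gene Lgals9 at 32.2 against 115 CPM and Irf8 at 315 against 800.1 CPM, along with Ifnar2, Il10rb and Ifi44. Irf5 and Slfn2 were higher in ILCpro_KO than in ALP as well, at 49.0 against 8.02 CPM and 79.2 against 10.4 CPM, and the third was Ifi204. The 2 that were lower in ILCpro_KO than in ALP were Il10rb and Lgals9, the second at 44.9 against 115 CPM.

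In ILCpro_KO a few cells rich in Lyz2 held much of the Ifitm3 and Ifi27l2a RNA, while most UMIs of the other members lay outside them. Cells with 5 or more Lyz2 UMIs numbered 37 of 716 (5.17%, exact Clopper-Pearson 3.66 to 7.05) in ILCpro_KO, 8 of 1829 (0.437%, 0.189 to 0.860) in ILCpro_WT and 6 of 810 (0.741%, 0.272 to 1.61) in ALP. They held 5.22% of all UMIs and 12.7% of member UMIs in ILCpro_KO, 0.649% and 2.171% in ILCpro_WT, and 0.621% and 1.34% in ALP. The line is a range on a scale and not a cell type: 3, 4 and 5 cells of the 3 libraries had exactly 4 Lyz2 UMIs and 1, 1 and 2 had exactly 5. Cells with 1 to 4 Lyz2 UMIs made up 19.0% of ILCpro_KO cells, 3.06% of ILCpro_WT cells and 38.8% of ALP cells, and free RNA in the droplets was not measured apart.

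Within ILCpro_KO, Ifitm3 stood at 1537 CPM (1380.5 to 1706) in the 37 cells and at 46.0 CPM (39.7 to 53.0) in the 679 others, and these 37 cells held 352 of its 543 UMIs, or 64.8%. Ifi27l2a stood at 633 CPM (534 to 745) against 46.9 CPM (40.6 to 54.0), with 42.6% of its UMIs in the Lyz2 cells. Ifitm2 stood at 812 CPM (699.6 to 938) against 144 CPM (132 to 156), with 23.8% of its UMIs there. Ifitm1 was the opposite, at 17.5 CPM (4.76 to 44.7) in the Lyz2 cells and 83.8 CPM (75.2 to 93.03) in the others, with 4 of its 352 UMIs in the Lyz2 cells. Samhd1 stood at 139.7 against 52.9 CPM, Trim30a at 114 against 46.9 CPM, Zbp1 at 52.4 against 11.3 CPM, Ly6e at 1567 against 1148 CPM and Bst2 at 105 against 97.7 CPM. Of the 23 members with 20 or more UMIs in ILCpro_KO, 7 had a fold interval above 1 in the Lyz2 cells and 1 (Ifitm1) had one below 1, beside 9.67% above and 10.3% below among the 9371 genes with as many UMIs, and 1 (Ifitm3) had over 50% of its UMIs there. The same Lyz2 cells held the neutrophil genes, S100a8 at 5672 against 140.3 CPM and Ngp at 1952 against 6.02 CPM.

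Summed over the few Lyz2 cells of the other libraries, Ifitm3 stood at 1264 CPM (938 to 1667) in the 8 ILCpro_WT cells and 1408 CPM (986 to 1949) in the 6 ALP cells. They held 36.8% (28.7 to 45.4) of the Ifitm3 UMIs of ILCpro_WT and 4.03% (2.84 to 5.53) of those of ALP. The 6 ALP cells were not alike. The 3 of them with 10 or more Lyz2 UMIs held 3.36% of the Ifitm3 UMIs with 0.184% of all UMIs, where all 6 held 0.621% of all UMIs. The ALP level thus rests mostly on 3 cells. The other cells differed: Ifitm3 stood at 46.0 CPM in ILCpro_KO, 14.2 CPM (11.4 to 17.5) in ILCpro_WT and 209.8 (196 to 224) in ALP. Outside the Lyz2 cells ALP was the high library for Ifitm3 and ILCpro_WT the low one. Of the Ifitm3 UMIs, 50% lay in 17 cells of ILCpro_KO (2.37% of cells), 12 cells of ILCpro_WT (0.656%) and 99 cells of ALP (12.2%).

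**Figure D2:**
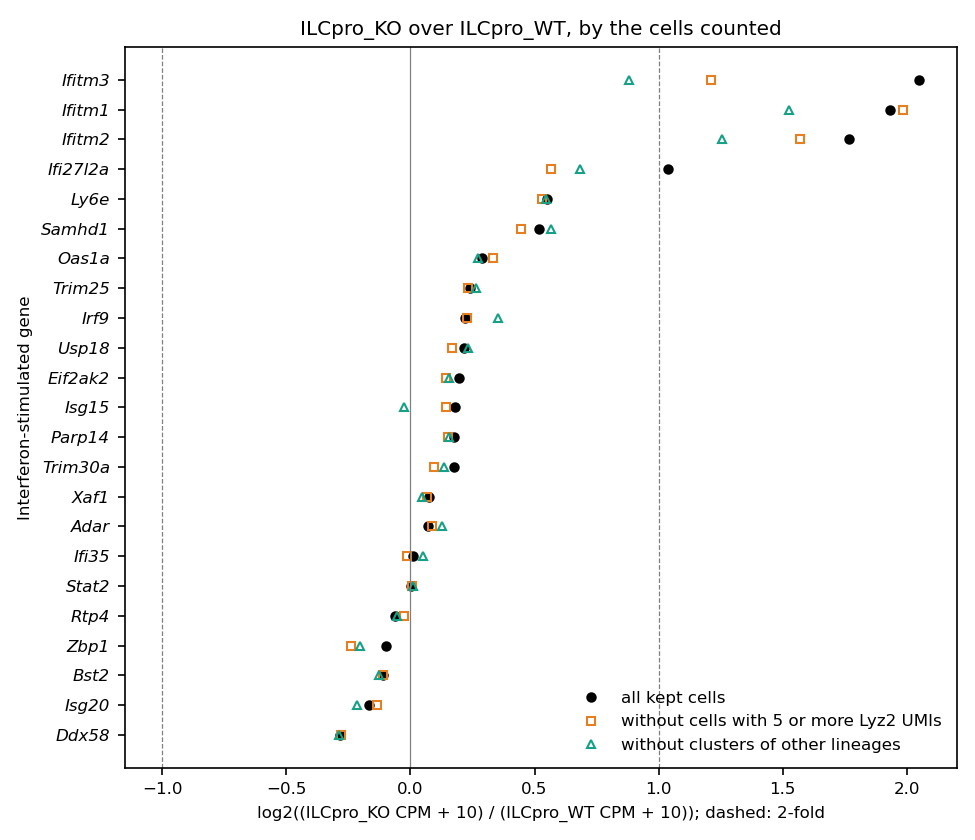
The log2 ratio of ILCpro_KO over ILCpro_WT, with 10 CPM added, for the 23 members that reached 5 CPM in either library, over all kept cells (filled circles), without cells with 5 or more Lyz2 UMIs (squares) and without clusters of other lineages (triangles); dashed lines mark 2-fold. Ifitm3 is at 2.05, 1.21 and 0.88 and Ifi27l2a at 1.04, 0.57 and 0.68 in these cell sets, while Ifitm1 and Ifitm2 stay above 1 in all 3 cell sets and most other members lie near 0.

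Without the Lyz2 cells, the log2 ratio of ILCpro_KO over ILCpro_WT was 1.21 for Ifitm3, at 46.0 against 14.2 CPM, and 0.57 for Ifi27l2a, at 46.9 against 28.4 CPM, which no longer reached 2-fold. It was 1.98 for Ifitm1 and 1.57 for Ifitm2. Against ALP, Ifitm3 without these cells was 4.56-fold lower (3.90 to 5.37) in ILCpro_KO, compared with 1.75-fold over all cells. The 12 neutrophil and monocyte markers were higher in ILCpro_KO than in ILCpro_WT, as these members were: they summed to 4757 CPM in ILCpro_KO, 495 CPM in ILCpro_WT and 998 CPM in ALP, 11 of 12 were at least 2-fold higher in ILCpro_KO than in ILCpro_WT, and Ngp and Camp had 0 UMIs in ILCpro_WT. Against ALP 11 of the 12 markers were at least 2-fold higher in ILCpro_KO as well, while Ifitm2, Ifitm3 and Ifi27l2a were lower there. Apart from the values without the Lyz2 cells, their part in the difference between the libraries was not tested.

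All kept cells were also clustered together, without the members, the pathway genes or the markers among the genes used. In ILCpro_KO, 60 cells of cluster 9, neutrophil-monocyte-like by its markers, held 74.0% (70.1 to 77.7) of the Ifitm3 UMIs, 43.2% of those of Ifi27l2a and 39.97% of those of Ifitm2, with 11.8% of all UMIs of the library. There Ifitm3 stood at 779 CPM (704 to 859). Ifitm1 lay elsewhere: 31 cells of unnamed cluster 11, whose leading genes were the basophil protease genes Prss34 and Mcpt8 with genes of haemoglobin, held 176 of its 352 UMIs with 4.17% of all UMIs. Ifitm1 stood at 962 CPM (826 to 1116) there, against 34.2 CPM (24.5 to 46.4) in cluster 0, a large unnamed cluster with Nfil3, an early ILC regulator, and the mast cell and basophil gene Cpa3 among its leading genes. Of the 22 ILCpro_KO cells with 5 or more Ifitm1 UMIs, 11 lay in cluster 11 and 0 had 5 or more Lyz2 UMIs, while of the 36 cells with 5 or more Ifitm3 UMIs 33 lay in cluster 9 and 27 had 5 or more Lyz2 UMIs. Ifitm2 was high in both, at 606 CPM (541 to 677) in cluster 9 and 656 CPM (544 to 785) in cluster 11. The cells richest in Ifitm1 and those richest in Ifitm3 were thus largely different ones. At the coarser resolution of 0.5 both groups of cells fell into 1 cluster of 91 ILCpro_KO cells, which was then the highest for both Ifitm1 and Ifitm3, and at 1.5 they were apart.

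**Figure D3:**
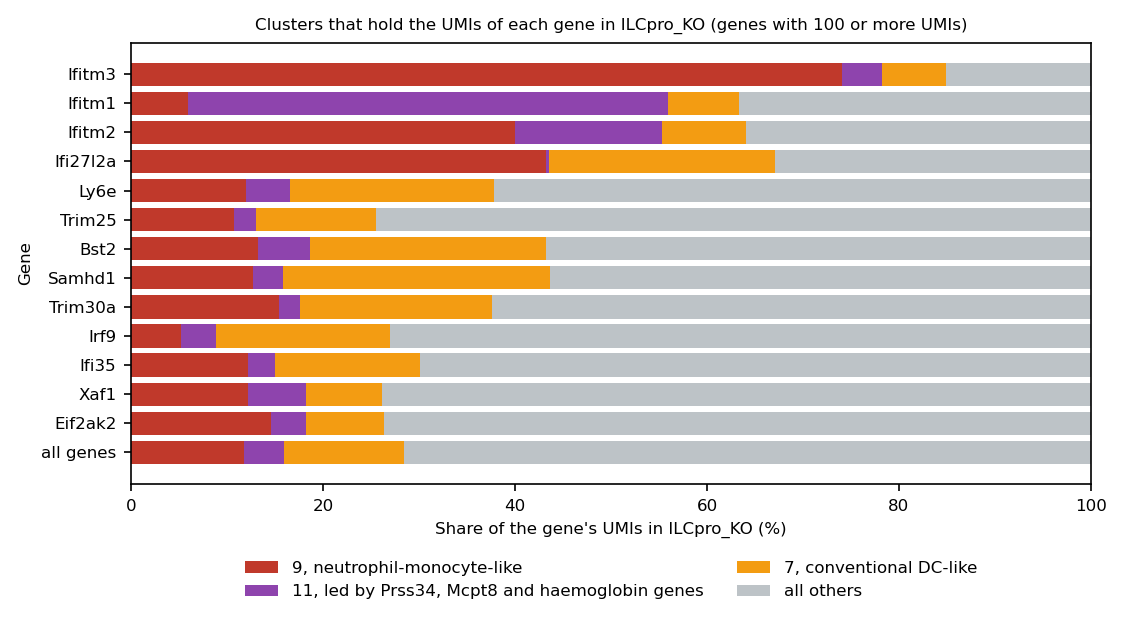
Share of each member's UMIs in ILCpro_KO, in percent, that lay in cluster 9 (neutrophil-monocyte-like), cluster 11 (Prss34, Mcpt8 and genes of haemoglobin), cluster 7 (conventional DC-like) and all others, for members with 100 or more UMIs, above the same for all genes. Ifitm3 has 74.0% in cluster 9 and Ifitm1 has 176 of 352 UMIs in cluster 11, while Trim25 and Irf9 are spread much as all genes are.

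Of the 7 basophil and mast cell markers 2 were at least 2-fold higher in ILCpro_KO than in ILCpro_WT, with a summed level of 781 CPM in ILCpro_KO, 314 CPM in ILCpro_WT and 27.2 CPM in ALP, and Cma1 had 0 UMIs in all 3 libraries. ALP was lowest for this sum, while for Ifitm1 ILCpro_WT was lowest. Of the 9 erythroid and megakaryocyte markers 4 were at least 2-fold higher in ILCpro_KO, with sums of 414, 83.0 and 203 CPM. Cluster 11 made up 4.33% of ILCpro_KO cells and 0.765% of ILCpro_WT cells. Clusters 9, 11, 12 (led by the B cell genes Cd79a and Ms4a1) and 13 (T-like) together held 16.8% of ILCpro_KO cells, 1.53% of ILCpro_WT cells and 2.59% of ALP cells. Without these 4, a choice made after the data were seen, Ifitm1 stood at 43.5 against 8.55 CPM in ILCpro_KO and ILCpro_WT, 5.09-fold (3.68 to 7.12), and Ifitm2 at 94.8 against 33.9 CPM, 2.80-fold (2.35 to 3.35). Ifitm3 stood at 32.8 against 13.2 CPM, 2.48-fold (1.85 to 3.34), with a log2 ratio of 0.88, and Ifi27l2a at 51.1 against 28.0 CPM, 1.82-fold (1.47 to 2.26). For Ifitm1 ILCpro_KO was then below ALP, at 0.624-fold (0.509 to 0.762), where it had been 1.14-fold over all cells. It was at 0.332-fold (0.293 to 0.375) of ALP for Ifitm2 and 0.155-fold (0.126 to 0.188) for Ifitm3.

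Within clusters that held 50 or more cells of both ILC progenitor libraries, the fold interval of Ifitm1 lay above 1 in 4 of 5. It stood at 34.2 CPM in ILCpro_KO against 6.83 CPM in ILCpro_WT in cluster 0 (5.005-fold, 2.32 to 12.4), at 37.5 against 6.65 CPM in unnamed cluster 4 (5.65-fold, 1.67 to 24.3), at 17.0 against 4.12 CPM in dividing cluster 6 (4.13-fold, 1.28 to 17.4) and at 47.5 against 11.2 CPM in conventional DC-like cluster 7 (4.26-fold, 1.30 to 22.0). In cluster 8, unnamed and with Bhlhe41, Asb2 and Cd7 in the lead, it stood at 22.1 against 12.7 CPM, and the interval of 0.388 to 16.04 includes 1. The ILCpro_WT values rest on 8, 4, 4, 3 and 2 UMIs in these clusters. Of the ILCpro_KO cells with 5 or more Ifitm1 UMIs, 3 lay in cluster 0, 2 in cluster 7 and 1 in cluster 8. Clusters 4 and 6 had 0 of them, and the 4 such ILCpro_WT cells all lay in cluster 11. The intervals count UMIs and not cells, so they do not show how evenly a cluster's cells shared the UMIs. Ifitm2 was 1.72-fold (1.29 to 2.31) higher in cluster 0, 2.54-fold (1.67 to 3.93) in cluster 6 and 1.99-fold (1.16 to 3.62) in cluster 7, with intervals that include 1 in clusters 4 and 8. Ly6e was 1.11-fold (1.02 to 1.21) higher in cluster 0, 1.22-fold (1.04 to 1.42) in cluster 4 and 1.39-fold (1.25 to 1.54) in cluster 6, and its intervals in clusters 7 and 8 include 1. Ifitm3 was 1.86-fold (1.07 to 3.32) higher in cluster 0 and stood at 65.8 against 96.8 CPM in cluster 7, where the interval of 0.3995 to 1.17 includes 1. Intervals below 1 were found for Ifi27l2a in cluster 7, at 0.587-fold (0.419 to 0.824), Trim30a in cluster 7, at 0.6005-fold (0.378 to 0.960), Bst2 in cluster 6, at 0.523-fold (0.359 to 0.749), and Eif2ak2 in cluster 6, at 0.387-fold (0.140 to 0.931). Above 1 were also those of Isg15, Usp18 and Trim25 in cluster 4, Irf9 in cluster 0 and Samhd1 in cluster 6. The median log2 ratio over the members that reached 5 CPM was 0.19, 0.15, -0.02, -0.15 and 0.24 in clusters 0, 4, 6, 7 and 8. Over the whole libraries that of all genes was 0.09. Within clusters neither the median of all genes nor their share with intervals apart from 1 was computed. The intervals named here were looked for among 32 members in each of 5 clusters, so they are a description only.

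**Figure D4:**
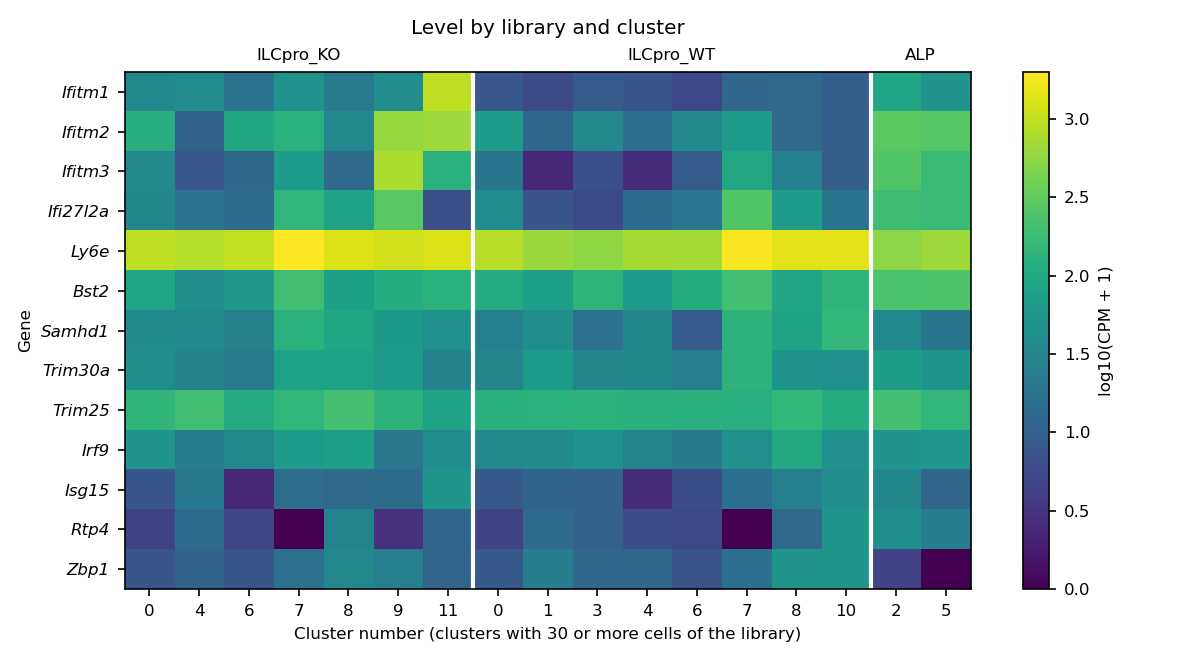
Level of 13 members as log10(CPM + 1), by library and cluster, for clusters with 30 or more cells of that library. In ILCpro_KO Ifitm3 is brightest in cluster 9 (779 CPM) and Ifitm1 in cluster 11 (962 CPM), while both ALP clusters are bright in Ifitm2 and Ifitm3 and dark in Zbp1.

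The members also varied between clusters of the same library. In both ILC progenitor libraries Ly6e was at its highest in conventional DC-like cluster 7, among clusters with 10 or more of their cells, at 1992 CPM (1875 to 2113) in ILCpro_KO and 1828 CPM (1669 to 1997) in ILCpro_WT, against 856 CPM in cluster 4 of ILCpro_KO and 545 CPM in ILCP-like cluster 3 of ILCpro_WT. Samhd1 was high in the same cluster, at 128 CPM (99.8 to 162) in ILCpro_KO and 134 CPM (93.9 to 186) in ILCpro_WT, and low in dividing cluster 6, at 26.2 and 8.25 CPM. Bst2 stood at 194 CPM in ILCpro_KO and 201 CPM in ILCpro_WT in cluster 7. Rtp4 had 0 UMIs in that cluster in both libraries. The name of cluster 7 rests on 7 of the 12 listed conventional DC markers, Batf3, Cst3, Ifi30, Cd74, H2-Aa, H2-Ab1 and H2-Eb1. Zbtb46, Itgax, Xcr1, Clec9a and Naaa of the same list were not among them, and unnamed cluster 8 had 5 of the 7.

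Cluster 10, called ILCP-like from Icos, Cxcr6, Il18r1, Rora, Gata3 and Il7r, held 71 cells, all of ILCpro_WT, so that a cell state and a feature of that library cannot be told apart. Zbtb16 and Tcf7 of the same marker list were low in it, at 49.7 and 72.3 CPM, beside 599.8 and 572 CPM in ILCP-like cluster 1, and at resolution 1.5 a cluster of 125 ILCpro_WT cells with many of these markers stayed unnamed. Cluster 10 also had 3 markers of group 2 ILCs at least 2-fold higher, with Arg1 of that list among its leading genes. The unnamed cluster at resolution 1.5 had 4 of them, with Arg1 and Bcl11b among its leading genes. Cluster 10 had Rtp4 at 54.3 CPM (28.0 to 94.8), Zbp1 at 54.3 CPM (28.0 to 94.8), Isg15 at 40.7 CPM (18.6 to 77.2) and Samhd1 at 154 CPM (106 to 215), beside 13.3, 23.1, 10.5 and 40.6 CPM of the same genes in ILCP-like cluster 1 of the same library. In contrast it had Ifitm1, Ifitm2 and Ifitm3 at 9.04 CPM each, from 2 UMIs each. The cluster 10 levels rest on 12 UMIs for Rtp4, 9 for Isg15 and 34 for Samhd1. Among its cells, 1 with 3341 UMIs held 4 Rtp4, 4 Zbp1 and 2 Isg15 UMIs, and another with 1282 UMIs held 2 Isg15 UMIs.

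In ALP both large clusters carried the Ifitm genes. Early lymphoid-like cluster 2 (522 ALP cells) had Ifitm3 at 253 CPM (232 to 275) and unnamed cluster 5 (250 ALP cells), led by genes of dividing cells, had it at 170.3 CPM (152 to 190.1). Ifitm2 stood at 293 and 279 CPM there, Ifitm1 at 85.1 and 52.3 CPM, Ifi27l2a at 189 and 172 CPM and Bst2 at 234 and 247 CPM. Isg15 stood at 31.9 CPM (24.7 to 40.5) in cluster 2 and 11.2 CPM (6.94 to 17.1) in cluster 5, and Zbp1 had 7 UMIs in cluster 2 and 0 in cluster 5.

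How many members a cell held at once was counted next. Each cell was thinned at random to 1000 UMIs, which left out 4 ILCpro_WT cells, and distinct members were counted among 24 of the set (all but Ifitm1, Ifitm2, Ifitm3, Ly6e, Bst2, Samhd1, Adar and Isg20). These 24 include members at 50 CPM or more, such as Trim25 and Ifi27l2a. At least 3 of them were found in 25 of 716 ILCpro_KO cells (3.49%, 2.27 to 5.11), 26 of 1825 ILCpro_WT cells (1.42%, 0.933 to 2.08) and 49 of 810 ALP cells (6.05%, 4.51 to 7.92). Without thinning these shares were 36.5%, 12.5% and 46.7%. No cell type is known to lack these genes, so none served as a background for free RNA. In ILCpro_KO 7 of the 25 were cells with 5 or more Lyz2 UMIs, in ILCpro_WT 2 of 26 and in ALP 1 of 49. At least 5 members were found in 1 ILCpro_KO cell, 3 ILCpro_WT cells and 4 ALP cells. The highest number was 9, in an ILCpro_WT cell of cluster 10 with 1282 UMIs before thinning. Unthinned, this cell held 10 of the members, Isg15 and Ifit3 at 2 UMIs each and Ifit1, Usp18, Mx1, Zbp1, Irf9, Xaf1, Trim25 and Trim30a at 1 each. After thinning the next highest ILCpro_WT cells held 5, and 1 of them lay in cluster 10 as well.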

How the data were processed

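Messenger RNA of single cells was measured in 3 sorted populations with 1 library each. The UMI counts per gene and cell barcode are raw counts as deposited by the authors. Per the submitters' processing notes, the tools were Cell Ranger 2.0.1, STAR 2.5.1b and bcl2fastq 2.17 and the genome was mm10; how cell barcodes were called is not given in the sources used here. UMI collapsing removes PCR copies, and strand and multi-mapping settings are not given, so near-identical or overlapping genes may share counts.

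Cells with at least 500 genes and at most 10% mitochondrial UMIs were kept, 716 of 716 barcodes in ILCpro_KO, 1829 of 1834 in ILCpro_WT and 810 of 812 in ALP. Ribosomal protein genes took 33.6%, 38.5% and 35.7% of their UMIs. Counts were summed per library. A member counts as at least 2-fold apart when log2((CPM + 10)/(CPM + 10)) is 1 or more, or -1 or less, with at least 5 CPM in either library. A fixed floor of 3 counts was used for members at or near 0. With 1 library per group no test, p-value or standard error was computed, and the exact 95% intervals cover counting error only. The interval and ratio code was tested on simulated data.

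Cells were clustered with scanpy 1.11.5 and leidenalg 0.10.2 (genes in at least 3 cells, 10000 counts per cell, 2000 variable genes, 30 principal components, 15 neighbours, resolution 1.0, no batch integration). This used neither the members, the pathway genes nor the markers, and no sex-linked, mitochondrial, ribosomal or cell cycle genes. A cluster was called like a type only when at least 3 of its listed markers, more than of any other type, were at least 2-fold higher there, and when its markers led those among the top 10 genes. The cluster names are rebuilt and are not the authors' own. Doublets were kept, and an alternative removed the highest Scrublet scores at 0.8% per 1000 barcodes (4, 27 and 5 cells).

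Gene positions are from GENCODE vM21 (GRCm38), matched by Ensembl identifier for 32 of 32 members, and promoter windows from RefSeq (GRCm38.p6), matched by symbol. The members and lists were chosen with earlier results of these data known. The pathway list has 91 genes, of which 90 were found. Members with at least 50 CPM in any library, or at least 2-fold apart, are given with their values, and so are pathway genes at least 2-fold apart with at least 20 CPM, the receptors, Irf1 and Irf7. A result of 1 pathway gene is not reported here. Ifitm6, Ifi44 and Ifi204 fall outside that rule and were named after their values were seen. The alternatives changed the pseudocount, minimum level, cell filter, scaling, averaging, Lyz2 line, doublets, clustering resolution and thinning. Software was python 3.11.15, numpy 2.4.6, scipy 1.17.1, pandas 2.3.3 and matplotlib 3.10.9.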

Additional observations from a re-analysis of the deposited data

How the results depend on the processing

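Of 1078 recomputed values, 0 of those at least 2-fold apart changed direction. Only ratios of single members at least 2-fold apart could be scored so. Of 960 log2 ratios of single members 924 moved by less than their counting interval reaches to either side. For members with few UMIs that interval is so wide that they could hardly leave it, so the count says little about them. Of 118 counts, medians and shares 87 stayed within 1.5 times or within a counting interval. With a pseudocount of 1 CPM, 11 members instead of 6 were at least 2-fold lower in ILCpro_WT than in ALP, beside 7.89% instead of 3.06% of all genes, and the median of all genes for ILCpro_KO over ILCpro_WT was 0.12 instead of 0.09. With a minimum of 20 CPM, 0 members instead of 1 were higher in ILCpro_WT than in ALP, beside 2.72% instead of 2.11% of all genes. That minimum leaves out Zbp1, whose fold of 7.77 is the same. With at least 1000 genes and at most 5% mitochondrial UMIs per cell it was 0 members too, beside 1.91% of all genes. Zbp1 was then at a log2 ratio of 0.98 instead of 1.07. Between ILCpro_KO and ALP 1 member instead of 0 was higher with a pseudocount of 1 CPM, with that stricter cell filter and with scaling without ribosomal and mitochondrial genes (Zbp1 in each), and 1 with the mean of per-cell CPM (Ly6e). In the same order, 5.19%, 2.07%, 2.42% and 2.30% of all genes were higher in these settings, instead of 2.01%. Another alternative, without clusters of other lineages, was chosen after seeing the data. There 2 members instead of 4 were higher in ILCpro_KO than in ILCpro_WT, beside 1.04% instead of 1.48% of all genes. Lower in ILCpro_KO than in ALP were 5 instead of 3 (Ifitm2 and Ifitm3 in addition), beside 1.51% instead of 1.43%.

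The Lyz2 line sets the share of member UMIs. With 1 or more Lyz2 UMIs it was 35.9% in ILCpro_KO, 7.01% in ILCpro_WT and 47.4% in ALP, and with 10 or more 11.1% in ILCpro_KO and 0.836% in ALP. After thinning to 1000 UMIs it was 9.34%, 1.86% and 0.836% in ILCpro_KO, ILCpro_WT and ALP. With 10 or more neutrophil-monocyte marker UMIs it was 44.8%, 7.15% and 10.6%, and without the 3 Ifitm genes 8.67%, 1.42% and 1.02%. The cells with 1 or more Lyz2 UMIs held 28.97%, 4.30% and 45.4% of all UMIs. Those with 10 or more Lyz2 UMIs held 4.16% of all UMIs in ILCpro_KO and 0.184% in ALP. For the thinned line the shares of all UMIs were 2.81%, 0.392% and 0.184% in ILCpro_KO, ILCpro_WT and ALP. Cells with 10 or more neutrophil-monocyte marker UMIs held 36.9%, 4.03% and 8.03% of all UMIs. At resolution 0.5 the highest ILCpro_KO cluster held 78.3% of Ifitm3 and 56.0% of Ifitm1. Cells with 3 or more of the 24 members were 9.43%, 4.15% and 16.03% when thinned to 2000 UMIs and 36.5%, 12.5% and 46.7% without thinning. Why values differed between settings was not tested.

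No paired analysis was possible because each group has 1 library, and leaving out a library leaves no comparison. Members at 0 to 5 UMIs allow no order of the libraries. A sort that admits other lineages, the depth of a library and its genotype cannot be told apart in a single library per group.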
